A study of Microtus ochrogaster with 2 samples.

Results

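Isolated wide peaks of H3K4me1 were chosen by length and spacing from the deposited peak list, on the named chromosomes and linkage groups. They are the peaks of at least 1000 bp with no other peak within a set distance, edge to edge, a limit that fell between the widest gap left out (12480 bp) and the narrowest gap kept (12574 bp). This gave 488 peaks of the 27164 on those 28 sequences, and of 36238 in the whole list. Width and spacing came from the same contrast of ChIP against input as pileup and fold, so those values are given as description and not as findings. The list compares 1 H3K4me1 ChIP library with 1 input library made without antibody. Both came from prairie voles (Microtus ochrogaster), from retrosplenial cortex of males at 30 to 40 days of age. No treatment, genotype or transgene is named in the labels. The series speaks of 8 males, but not of how many went into each library or of pooling. With 1 library of each kind there is no replicate check, so all intervals below cover counting error over peaks only, and peaks are not replicates. Depth after filtering was 37430265 fragments for the ChIP and 47554684 for the input.

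H3K4me1 is histone H3 with a single methyl group on lysine 4. The mark is found at enhancers, and it flanks active promoters, where the start site itself tends to carry trimethylated lysine 4 in its place. In cortex, large neuronal genes often carry many such sites along their introns, and the retrosplenial area is a midline cortical region known for its part in spatial memory. A lone wide peak is thus a single marked stretch with no marked neighbour close by. Marker genes of the tissue were looked up in the list as a whole, where 5257 of 13975 protein-coding genes held a peak summit. Summits lay inside 10 of 16 excitatory cortical neuron genes, 3 of 18 inhibitory neuron genes, 2 of 9 astrocyte genes, 5 of 14 oligodendrocyte lineage genes, 3 of 13 microglia genes, 2 of 8 endothelial and pericyte genes and 2 of 14 hepatocyte genes, the last from a tissue not sampled. Gene length differed between these lists, with medians of 75.7 kb for excitatory neuron genes, 73.7 kb for endothelial and pericyte genes and 9.18 to 19.1 kb for the others. No test of coverage between the lists was made.

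Length and spacing are the values that the rule used, and both come from the same peak call. Their relation is given as description and not as a finding. Within the list, wide peaks were less often isolated than narrow ones. Of the 2228 peaks of at least 1 kb, 21.9% were isolated (95% Wilson interval 20.2 to 23.7%), against 40.3% (39.7 to 40.9%) of the 24936 shorter ones. The share was 47.3% among peaks under 300 bp, 27.5% from 800 to below 1000 bp, 26.4% from 1000 to below 1200 bp and 12.7% (8.68 to 18.2%) at 2000 bp or more. The decline was therefore gradual across the threshold of 1000 bp. It was not even at every step, since the share was 19.1% from 1200 to below 1500 bp and 21.0% from 1500 to below 2000 bp.

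**Figure D1:**
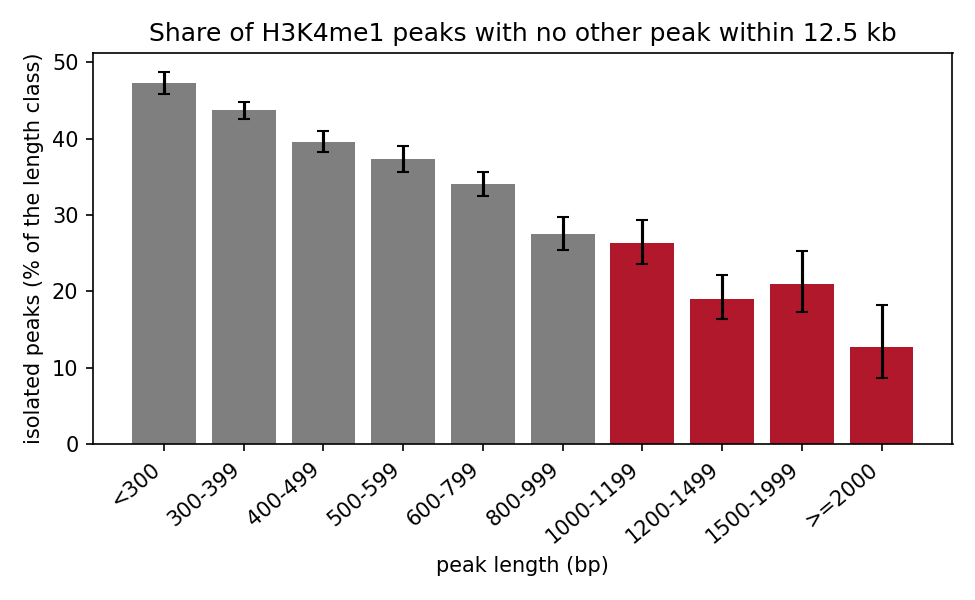
Percent of peaks with no other peak within the isolation distance (y axis) in each class of peak length in bp (x axis), for peaks on the named chromosomes and linkage groups, with 95% Wilson intervals as bars. Red columns are the classes of 1 kb or more, which lie between 12.7% and 26.4%, all below the 27.5% of the longest grey class.

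The isolated wide peaks were mostly only a little wider than the threshold. Their median length was 1206 bp (quartiles 1078 and 1464 bp), 242 of the 488 were under 1200 bp, and 24 reached 2000 bp. The nearest other peak lay a median of 26.8 kb away (quartiles 18.2 and 52.4 kb, highest 542.5 kb). They occurred on 27 of the 28 sequences. Linkage group 12 had none, with 1 wide peak among its 42 peaks. The X had 1, which was the only wide peak among its 62 peaks. On the 21 sequences with 10 or more isolated wide peaks, density was measured up to the last peak of the sequence. It ran from 0.196 per Mb on linkage group 4 to 0.572 per Mb on linkage group 8. Chromosome 1, the longest, had 40, and linkage group 5 had the highest part of its wide peaks isolated among those 21, 24 of 54 (44.4%). Chromosome 18 had the lowest, 15 of 132 (11.4%).

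Members at the edge of the rule had values in the range of the peaks just outside it. The 5 shortest were 1000 to 1002 bp long, with 22 to 27 fragments at the summit and 3.13-fold to 3.60-fold enrichment. The 5 longest isolated peaks below the length limit were 994 to 997 bp long, with 21 to 32 fragments and 2.63-fold to 3.74-fold. The 5 members closest to another peak had gaps of 12.57 to 12.75 kb and 24 to 40 fragments, and the 5 wide peaks just outside had gaps of 12422 to 12480 bp and 22 to 42 fragments.

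The summit, the base with the most ChIP fragments, could lie almost anywhere along these peaks. Counted from the lower coordinate, its median position was 0.475 of the length (quartiles 0.281 and 0.691). It lay a median of 256 bp from the centre and 359 bp from the nearer edge. In 197 of 488 (40.4%, interval 36.1 to 44.8%) it was in the central one of 3 equal parts, against 37.6% (35.3 to 39.9%) of the 1740 wide peaks with a neighbour and 35.3% (34.3 to 36.2%) of the 10053 isolated narrow ones. The interval of the isolated wide peaks overlapped both. The summit lay within 100 bp of an edge in 33 (6.76%), and in 143 (8.22%) of the wide peaks with a neighbour. The summit was on the lower-coordinate side of the midpoint in 53.1% (48.6 to 57.5%), an interval that includes equal shares. The last 10% of the length alone held 3.69% (2.35 to 5.76%) of summits, below the 6.95% (5.85 to 8.25%) of wide peaks with a neighbour, while the first 10% held 7.17% (5.20 to 9.81%) against 5.63% (4.64 to 6.82%). The last bin is 1 of 10 looked at, and coordinates run without regard to strand, so no direction is read from it.

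**Figure D2:**
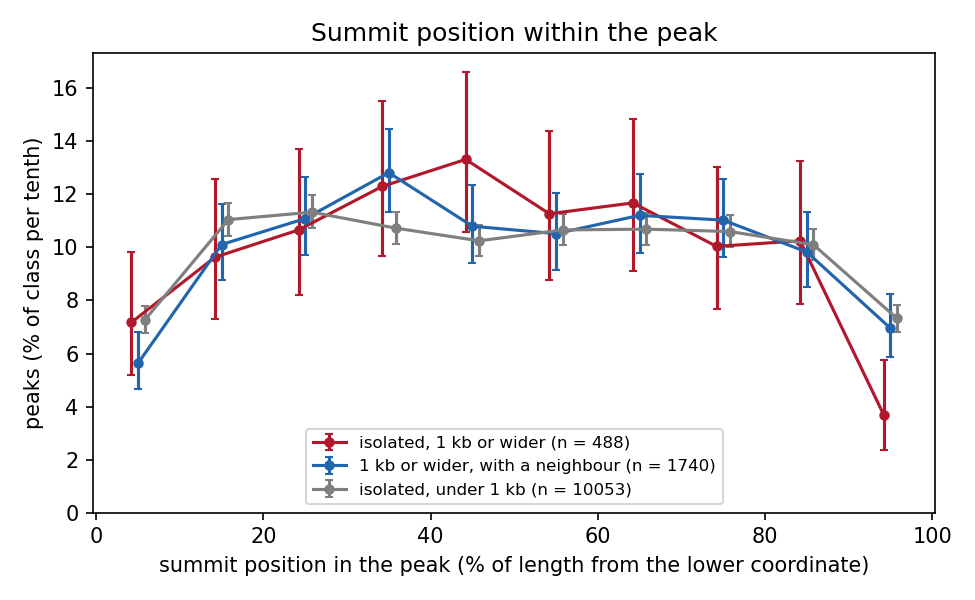
Percent of peaks of each class (y axis) whose summit falls in each of 10 equal bins, as percent of the length from the lower coordinate (x axis); points are offset sideways for legibility and bars are 95% Wilson intervals. The isolated wide peaks hold 7.17% of their summits in the first bin and 3.69% in the last, the single bin where their interval lies below those of both other classes.

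Extremes in both directions were found at neuronal and general genes. At Stmn2, which encodes a microtubule regulator of growing axons, the summit lay 25 bp from the edge of a 1116 bp peak. At Tsc1, which encodes an inhibitor of the mTOR pathway, it lay 26 bp from the edge of 1114 bp, and at Foxj3, a forkhead transcription factor gene, 26 bp from the edge of 1688 bp. The other members with the summit nearest an edge were in LOC101983038 (8 bp) and far outside Aldh8a1 (14 bp). These 5 were weak to moderate, with 21 to 26 fragments and 2.20-fold to 2.79-fold enrichment. The most central summits, 0.5 to 2 bp from the middle, were in Ttll7, which encodes a tubulin polyglutamylase, the activin receptor gene Acvr1, the ubiquitin ligase gene Trim11, Rrp1 of ribosomal RNA processing, and Lingo1, a neuronal receptor component that limits axon growth. These had 27 to 31 fragments and 2.90-fold to 4.16-fold enrichment.

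Pileup, the number of ChIP fragments over the summit, and fold enrichment over the local background are the authors' values for each peak. The isolated wide peaks had a median pileup of 27 fragments (quartiles 24 and 30) and a median fold of 3.32 (quartiles 2.99 and 3.73). Wide peaks with a neighbour had 28 fragments and 3.32-fold, and isolated narrow peaks 21 fragments and 2.77-fold. Enrichment of at least 4-fold was found at 73 of 488 (15.0%), where 2.91% of all 27164 peaks reached it. Wide peaks with a neighbour had the same share, 15.0%, and isolated narrow peaks 1.43%. These shares are read no further, since width and fold come from the same fragments. The background was at its lowest value of 6.23 fragments for 125 members (25.6%). This share was 34.4% over all 27164 peaks, 45.6% of isolated narrow peaks and 19.5% of wide peaks with a neighbour. In the whole list of 36238 peaks, 12487 had this same value, and among such peaks fold varied with pileup alone. Across the 488, length and pileup were weakly related, with a Spearman rho of 0.215, or 0.228 without the 7 members of highest background.

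The highest pileups did not come with the highest folds. A group of 7 members had 189 to 709 fragments but only 1.53-fold to 1.90-fold enrichment, over backgrounds of 110 to 464 fragments. All 7 lay outside genes, 53.1 to 646.3 kb from the nearest gene end. The strongest, on chromosome 1 (109623129 to 109624877), had 709 fragments over a background of 464 and was nearest to the small GTPase gene Rap2b, 204.4 kb away. On linkage group 5, 2 of them lay at 6740313 to 6741344 (355 fragments) and 6891194 to 6892274 (566 fragments), both nearest to LOC101990271. The others were nearest to the DNA repair gene Ercc4 (490 fragments), Fam76b (455), the cadherin gene Cdh18 (281) and LOC102000973 (189). Without these 7 the highest pileup was 58 fragments, at 518 to 1552 of linkage group 10 with 2.04-fold enrichment, followed by 51 inside Rere, a transcriptional corepressor gene. Whether the high input background bears on the width of the 7 was not tested.

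**Figure D3:**
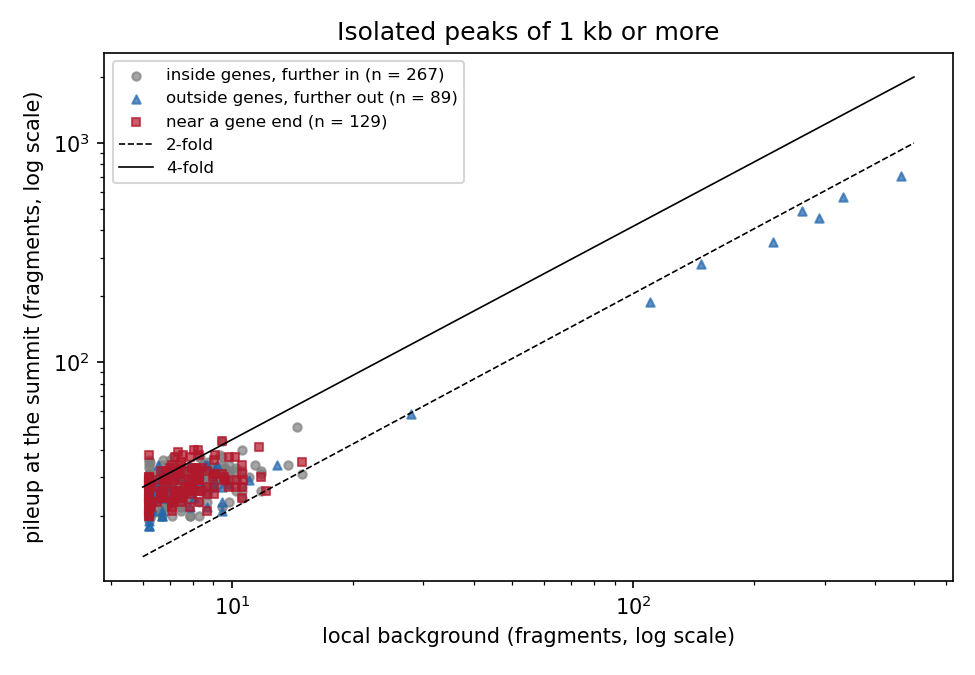
Pileup at the summit (y axis, fragments, log scale) against the local background from the input (x axis, fragments, log scale) for 485 isolated wide peaks, by location relative to genes; lines mark 2-fold and 4-fold enrichment. All 7 members with backgrounds of 110 fragments or more lie outside genes and below the 2-fold line.

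By enrichment, the first member was at Denr, a factor of translation reinitiation and ribosome recycling. Its peak on chromosome 2 (13667508 to 13668651) had 38 fragments over 6.23, or 5.39-fold, with the summit 1.20 kb from a gene end. Next came Hibadh of valine breakdown (5.12-fold, 36 fragments), Opcml, a neuronal cell adhesion gene (4.98-fold, 35), Pde10a, a cyclic nucleotide phosphodiesterase gene (4.97-fold, 35), and Prkce, which encodes protein kinase C epsilon (4.84-fold, 34). These lay deep inside long genes, 27.8 to 425.6 kb from an end. The remaining ones of the first 10 were in the chromatin remodeller subunit gene Pbrm1 (4.79-fold), Peak1 (4.77-fold), Tbc1d2 (4.70-fold) and the cargo receptor gene Surf4 (4.66-fold), and outside the RNA editing enzyme gene Adarb1 (4.64-fold). The summits of these 10 were 140 to 753 bp from the nearer edge.

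The widest member was at Ccnl1, which encodes cyclin L1, a regulator of splicing. It spanned 3044 bp on chromosome 1 (112115017 to 112118060), had 44 fragments and 4.30-fold enrichment, and its summit stood at 92.9% of the length, 215 bp from the edge. It was also among the 5 most isolated members, with 285.0 kb to the nearest peak, in a gene of 12.4 kb. Wbp1l (2431 bp), the guanylate kinase gene Guk1 (2383 bp) and the T-type calcium channel gene Cacna1g (2379 bp, 2.62 kb outside the gene) followed. Then came the transcription factor gene Tcf12 (2355 bp), Cpeb1 of translational control (2326 bp), the methyltransferase gene Prdm2 (2314 bp), the signal peptide peptidase gene Hm13 (2282 bp), Nacc2 (2281 bp) and Prkce (2265 bp). The wide peaks at Guk1 and Nacc2 had 20 and 21 fragments at the summit, below the members' median of 27.

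The loneliest member lay at 11820512 to 11821570 of chromosome 6, with 542.5 kb to the nearest peak, 32 fragments and 4.08-fold enrichment. It is in a stretch where genes could not be matched. The next was 68.5 kb from Sp8, a zinc finger transcription factor gene of forebrain patterning, with 365.9 kb to the nearest peak and 18 fragments, the lowest pileup found among members. Another lay inside the ephrin receptor gene Epha6 (309.0 kb, 30 fragments) and one 196.1 kb outside Ostf1 (232.8 kb, 24 fragments).

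Gene positions were not used to choose the peaks, although spacing itself favours stretches with few peaks. Summits were placed against protein-coding genes of assembly MicOch1.0 for 485 members, while the 3 on the first 20 Mb of chromosome 6 got no gene. Strand was not used, so a gene end may be a start or a stop of transcription. Members inside a gene numbered 380 (78.4%, interval 74.5 to 81.8%). This lay between the 56.1% (55.1 to 57.1%) of isolated narrow peaks and the 85.9% (84.2 to 87.5%) of wide peaks with a neighbour. It was close to the 78.2% (77.6 to 78.9%) of narrow peaks with a neighbour. Over all peaks placed against genes the share was 70.6%. Another 60 (12.4%, 9.73 to 15.6%) were outside genes and more than 25 kb from any, against 31.8% (30.9 to 32.7%) of isolated narrow peaks and 5.93% (4.91 to 7.14%) of wide peaks with a neighbour. No test beyond these intervals was made.

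Isolated wide peaks were more often close to a gene end than peaks of the other classes, with intervals that did not overlap. Their summits lay within 2.5 kb of an end in 129 of 485 (26.6%, 22.9 to 30.7%). This held for 15.6% (14.9 to 16.4%) of isolated narrow peaks and 8.81% (7.57 to 10.23%) of wide peaks with a neighbour. It held for 11.7% (11.2 to 12.3%) of narrow peaks with a neighbour and 13.2% of all 27022 placed peaks. Most of the 129 members, 104, were at 1 to 2.5 kb, which is 21.4% (18.0 to 25.3%) of the members. Isolated narrow peaks had 10.3% (9.71 to 10.9%) there and wide peaks with a neighbour 6.22% (5.18 to 7.45%). Narrow peaks with a neighbour had 7.80% and all placed peaks 8.86%. Only 6 members (1.24%) were within 500 bp of an end. Within 500 bp isolated narrow peaks had 1.63% and wide peaks with a neighbour 1.38%, so few summits of these classes lay at the end itself. The median distance to an end was 18.1 kb, against 38.7 kb for isolated narrow peaks and 24.9 kb for wide peaks with a neighbour. With an isolation distance of 5 kb the share within 2.5 kb was 19.4%, and the share at 1 to 2.5 kb was 14.6%. The other classes were not recomputed at that distance.

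**Figure D4:**
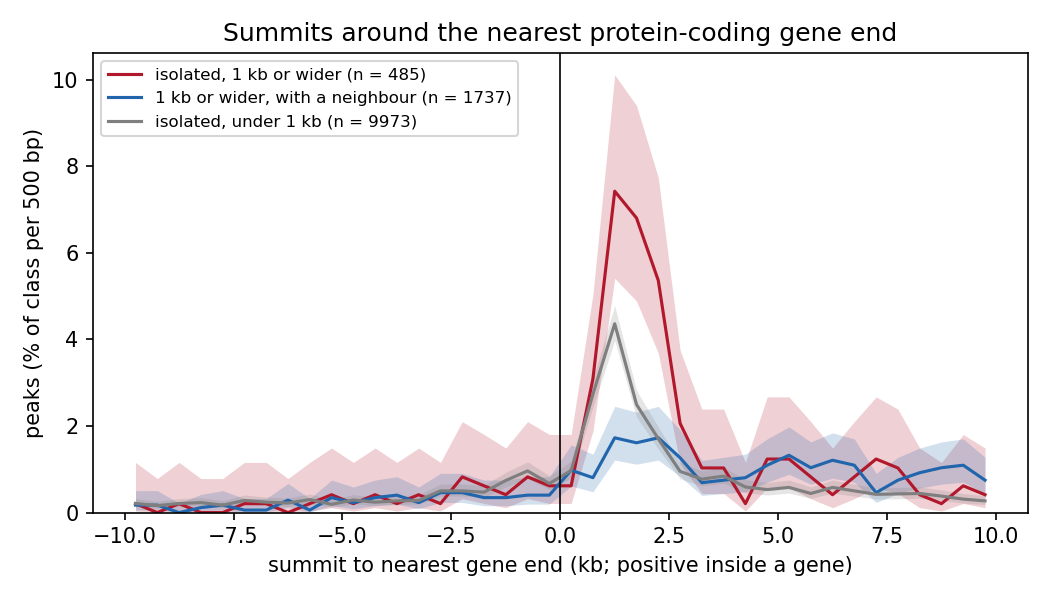
Percent of the peaks of each class (y axis, per 500 bp) by the distance of the summit from the nearest end of a protein-coding gene (x axis, kb, positive when the summit is inside a gene), with 95% Wilson bands. The isolated wide peaks reach 7.42% in the bin at 1 to 1.5 kb inside, where isolated narrow peaks have 4.36% and wide peaks with a neighbour 1.73%.

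Near gene ends most isolated wide peaks, isolated narrow peaks and wide peaks with a neighbour lay on the gene's side. Of the 129 members there, 110 (85.3%, 78.1 to 90.4%) had the summit inward of the nearest end, against 75.9% (73.8 to 78.0%) of isolated narrow peaks and 72.6% (65.0 to 79.0%) of wide peaks with a neighbour. The interval of the members overlapped that of the wide peaks with a neighbour and lay just above that of the narrow ones. In these the outer edge of the peak lay a median of 1028 bp inside the gene (quartiles 797 and 1315 bp), the summit 1529 bp and the inner edge 2260 bp. Isolated narrow peaks in the same position began at the same depth, with a median outer edge of 1028 bp, and ended at 1556 bp. Wide peaks with a neighbour began at 994 bp and ended at 2247 bp. A peak covered the gene end itself in 13 of the 129 members. Of the 110, 74 (67.3%, 58.1 to 75.3%) had the summit on the side of the peak's midpoint towards the end, against 58.6% (49.3 to 67.3%) of wide peaks with a neighbour and 54.7% (51.8 to 57.5%) of isolated narrow ones. The intervals of both wide classes overlapped. Choosing peaks by a summit within 2.5 kb of an end itself favours summits on that side. With peaks placed by their midpoint, the members' share was 63.2% (53.7 to 71.8%). The other classes were not recomputed that way, so the difference is read no further.

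Genes holding a near-end member were shorter at the median than genes holding a member further in. Median host gene length was 29.6 kb for near-end members and 140.1 kb for those further in. Short genes have little or no room beyond 2.5 kb from both ends, so this order follows in part from the definition. The nearest end could also belong to a gene other than the one holding the summit. Pileup and fold were close in the locations, with 28 fragments and 3.31-fold near an end, 27 and 3.32-fold further in, and 27 and 3.38-fold further outside genes. Median length was 1173, 1231 and 1160 bp in the same order.

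Near-end genes are named here after their values were seen. By fold, the first after Denr and Pbrm1 was at Dmtf1, a Myb-like transcription factor gene, with 37 fragments and 4.62-fold enrichment 1.66 kb from an end. At Dpm1, a subunit of dolichol phosphate mannose synthase, 38 fragments gave 4.56-fold at 1.58 kb. At Phf20, which encodes a histone reader of an acetyltransferase complex, 40 fragments gave 4.53-fold at 1.25 kb. Members also lay in the ribosomal protein genes Rps7 and Rps13. Rps7 had 29 fragments and 4.08-fold at 1.39 kb, and Rps13 31 fragments and 2.75-fold at 1.13 kb. Mapk3, which encodes the kinase ERK1, held a 1711 bp member with 24 fragments and 3.46-fold, 2.48 kb from an end of a gene of 6.24 kb. The member nearest to an end was at Hspa8, a constitutive chaperone gene, with its summit 12 bp outside the gene, 29 fragments and 2.84-fold enrichment.

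Long genes held isolated wide peaks too, often beside many other peaks of the same gene. The share of genes holding one increased with gene length, from 0.44% (0.29 to 0.66%) of genes under 10 kb to 3.65% (3.07 to 4.33%) at 30 to 100 kb and 20% (16.04 to 24.65%) at 300 kb or more. For wide peaks with a neighbour the shares were 0.80%, 8.40% and 28.8%. For peaks of any class they were 12.8%, 56.4% and 92.1%, so a rise with gene length was not particular to isolated wide peaks. Genes under 30 kb held 22 and 65 of the 380 members inside genes, 5.79% and 17.1%, in the classes under 10 kb and of 10 to 30 kb. The same classes held 2.82% and 9.38% of the wide peaks with a neighbour inside genes. Host genes of members had a median length of 81.2 kb, against 125.1 kb for wide peaks with a neighbour and 130.6 kb for isolated narrow peaks. Crowded host genes were not typical of all members. The host gene of a member held a median of 2 peaks, and 146 of the 380 members (38.4%) were the only peak of their gene.

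**Figure D5:**
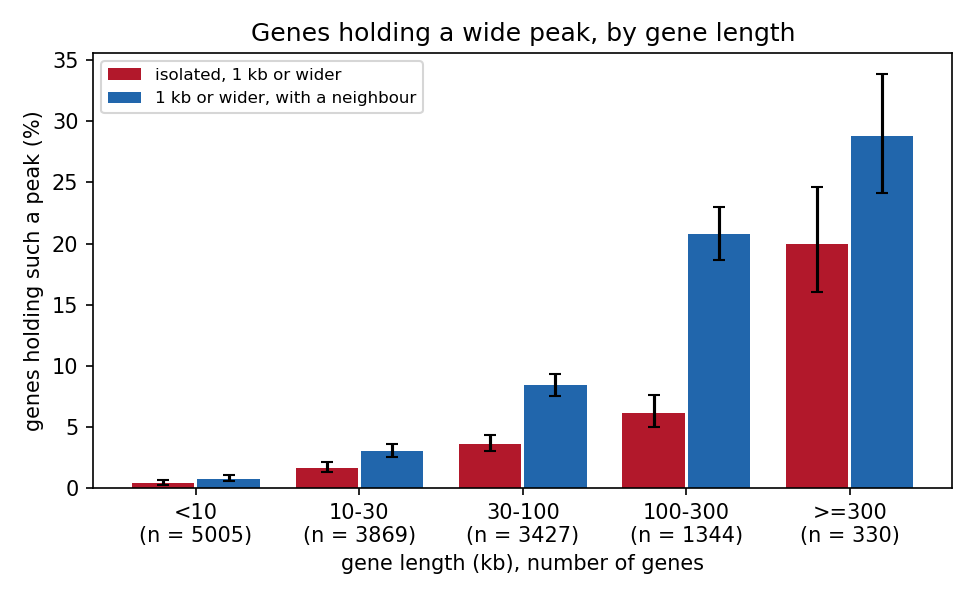
Percent of protein-coding genes of each length class (x axis, kb, with the number of genes) that hold the summit of an isolated wide peak (red) or of a wide peak with a neighbour (blue), with 95% Wilson intervals. Both rise with gene length, the red columns from 0.44% to 20%.

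The 485 members were assigned to 461 different nearest genes, and 21 genes had more than 1. In 3 genes there were 3 members each. Syt1, which encodes the calcium sensor of synaptic vesicle release, had members of 1465, 1219 and 1330 bp with 29, 26 and 30 fragments and 3.34-fold, 2.32-fold and 2.58-fold enrichment, among 28 peaks. Nav3, a neuron navigator gene, had members of 1341, 1477 and 2081 bp with 26, 30 and 31 fragments and 3.44-fold, 3.93-fold and 3.96-fold, among 29 peaks. Rere had members of 1392, 1696 and 2198 bp with 51, 27 and 34 fragments and 3.34-fold, 2.41-fold and 3.70-fold, among 19 peaks. In each of these genes the other peaks were thus beyond the isolation distance from the members. Among the genes with 2 members inside were the transcription factor gene Nfia, the adenylate cyclase gene Adcy2, the adhesion genes Lsamp, Opcml and Negr1, and the RNA-binding protein gene Msi2. Nav3, Negr1 and Msi2 were chosen after their values were seen.

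Gene lists were read against the 3.30% of 13975 protein-coding genes that were nearest to an isolated wide peak, and gene length differed strongly between lists. Of 24 synapse genes 4 were nearest to a member, and all 4 held it inside. Syt1 is described above. Rims1, an active zone scaffold gene, had 20 fragments and 2.37-fold at 98.4 kb from an end. Nrxn3, a presynaptic adhesion gene, had 25 fragments and 3.32-fold, and Dlg2, a postsynaptic scaffold gene, 21 fragments and 3.04-fold. These genes are long, and the list's median gene length was 146.8 kb against 18.0 kb for all genes.

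Potassium channel genes were nearest to a member in 4 of 14 cases, at a median gene length of 281.9 kb. Members inside Kcnq3 (28 fragments, 4.01-fold) and Kcnq5 (30 fragments, 3.21-fold), both encoding subunits of the M-current, and inside Kcnj6 (27 fragments, 2.90-fold), a G protein-gated channel gene, lay 36.8 to 105.6 kb from an end. The peak assigned to Kcnt2 lay 1108 kb away from it. Axon guidance and adhesion genes were nearest in 5 of 28 cases (median length 349.9 kb). Besides Opcml and Lsamp these were the cadherin genes Cdh13 (26 fragments, 3.73-fold) and Cdh18 (26 fragments, 3.34-fold, inside the gene) and the semaphorin gene Sema5a (23 fragments, 3.32-fold).

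Kinase, phosphatase and second messenger genes were nearest in 6 of 30 cases (median length 229.3 kb). Beyond Prkce, Pde10a and Mapk3, Adcy2 had members with 28 and 26 fragments and 4.002-fold and 3.734-fold enrichment, and Mapk10, which encodes a neuronal JNK, had 24 fragments and 3.09-fold. The member assigned to the receptor phosphatase gene Ptprd was 578.6 kb outside it. Transcription and chromatin genes were nearest in 4 of 35 cases (median length 170.2 kb). Kmt2a, which encodes an H3K4 methyltransferase, held a single 2081 bp peak with 32 fragments and 3.05-fold enrichment, 5.83 kb from an end. Arid1b, a remodeller subunit gene, held a 2071 bp member (31 fragments, 4.16-fold) among 29 peaks, and Hdac4, a histone deacetylase gene, a 1040 bp member (34 fragments, 3.66-fold) among 16. Nfia held members with 29 and 24 fragments and 3.54-fold and 3.25-fold.

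Few cell type marker genes were nearest to an isolated wide peak, as was the case for genes in general. Mef2c, a transcription factor gene of cortical neurons, was the only one of 16 excitatory neuron genes nearest to a member, which lay 181.2 kb outside it (27 fragments, 3.66-fold). Mbp, which encodes myelin basic protein, was the only one of 14 oligodendrocyte lineage genes, and its 1358 bp peak inside the gene had 31 fragments and 4.43-fold enrichment with the summit 162 bp from the edge. None was nearest among 18 inhibitory neuron, 9 astrocyte, 13 microglia, 8 endothelial and pericyte, 19 activity-regulated or 12 housekeeping genes, nor among 14 hepatocyte, 10 epithelial or 10 muscle genes of tissues not sampled. Counts of 0 or 1 in lists this short are read no further beside the 3.30% over all genes. When a gene was counted for a member inside it or within 50 kb, 2 of 13 microglia genes and 2 of 19 activity-regulated genes had one, beside 6.68% of all genes. With the length limit lowered to 800 bp, the listed genes nearest to a member numbered 43 in place of 25 of 273, while the share over all genes was 6.02%.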

How the data were processed

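The authors called peaks on paired-end fragments with MACS 2.0.10.20131216, keeping 1 duplicate per position, at a q limit of 0.05 and a genome size of 1.89e+09 without broad calling, per the file headers. Per the submitters' processing notes the tools were MACS2 2.0.10, BWA 0.7.12 and SAMtools 0.1.19. Stampy, an aligner, appears in paths of the header. Per the file headers, the deposited signal is the pileup of ChIP fragments at the summit, the deposited ratio is the fold over the input background, and the caller wrote a −log10 p and a −log10 q per peak. Depths were equalised by scaling down the deeper library, per the file headers.

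The background was computed as (pileup + 1) / fold − 1, and a Poisson p from it differed from the deposited −log10 p by at most 0.000262. High background means over 5 times the lowest value. The sequences used were 18 named chromosomes and 10 linkage groups, and unlocalised and unplaced pieces were left out. The peak list names no genome build. Its match to MicOch1.0 was settled from the data. Summits 1 to 2.5 kb from a gene end numbered 2470, and 1199 to 1371 once all peaks were shifted by 20 to 200 kb, and the unshifted count was highest on 26 of 28 sequences. Each summit was given the shortest protein-coding gene holding it, or else the gene with the nearest end. In 5 members more than 1 gene held the summit.

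Named members were the 10 widest, of highest pileup and of highest fold, the 5 most isolated, with summits nearest an edge or the centre, those at each threshold, and listed genes. Members and lists were chosen with earlier results of these data known. Shares carry 95% Wilson intervals. No p-value was computed. Python 3.11.15, numpy 2.4.6, pandas 2.3.3 and scipy 1.17.1 were used, and the assignment was checked on simulated peaks. No genome sequence was used.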

Additional observations from a re-analysis of the deposited data

Results flagged for a closer look

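Isolated wide peaks also occurred on sequences that entered no comparison above, although each was enriched over the input by the caller's test. There were 187 of them, 26 on unlocalised pieces of chromosomes and 161 on other sequences. Their median length was 1206 bp, with 28 fragments and 3.18-fold enrichment at the median, and 40.6% had the summit in the central one of 3 equal parts. A background over 5 times the lowest was found at 23 (12.3%), against 1.43% of the 488 members. On short sequences isolation means less, since 37 of the 187 had no peak on at least 1 side and 23 were the only peak of their sequence.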

How the results depend on the processing

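The number of isolated wide peaks followed the limits that define them, with 943 at a minimum of 800 bp, 110 at 1500 bp, 846 at an isolation distance of 5 kb and 273 at 25 kb. At unchanged limits it was 684 among peaks ranked above the median by q and 677 among peaks of at least 3-fold, against 488. Peaks left out there no longer counted as neighbours. The share of wide peaks that were isolated was 34.51% and 41.95% in these settings, against 21.9%. Median fold was 3.20 at 800 bp, 3.46 at 1500 bp, 3.40 among peaks ranked above the median by q and 3.52 among peaks of at least 3-fold. The share inside genes was 73.7% at 800 bp, 71.5% at 25 kb and 82.6% with at least 3-fold, and the share more than 25 kb from any gene was 16.3%, 18.5% and 8.77% under the same settings. The share within 2.5 kb of a gene end was 22.7% at 1500 bp, 19.4% at 5 kb, 21.3% above the median q rank and 20.5% with at least 3-fold. At 1 to 2.5 kb the share was 14.6% at 5 kb, 17.0% above the median q rank and 16.5% with at least 3-fold. It was 16.7% when any base of the peak counted in place of the summit. The median distance to a gene end was 22.4 kb at 5 kb, and 43 listed genes were nearest to a member at 800 bp. The cause of these shifts was not tested. Near-end members were on the gene's side in 72.0% at 1500 bp, with the summit towards the end in 50%. Of 196 recomputed values, 140 planned and 56 added after seeing the data, 156 stayed within their limits and 40 moved. The other peak classes were not recomputed, so whether a comparison with them would reverse was not tested. No value run without high-background peaks, or without chromosomes 6 and X, moved. Chromosome 14 was named in the same setting, but it was not among the 28 sequences used, so nothing was removed for it.

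Each kind of library was sequenced once, so no library could be left out and spread between animals is not measured. No paired analysis was possible because there is 1 ChIP and 1 input library and the result comes from their joint peak call. The lowest pileup was 18 fragments among members and 16 among narrower peaks, and the depth that wide stretches need was not tested. Motifs of nearby promoters were planned and not run.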
